A study of Mus musculus with 12 samples.

Results

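The 46 genes described here are interferon-stimulated genes and genes of class I antigen presentation, taken by symbol from a list of sensors, transcription factors, antiviral effectors, GTPases and peptide-loading proteins. They were read from all probes annotated to them (89 probes for 45 genes, of 45281 probes on the array), and 39 of them were measured, among 10258 genes measured in all. A gene counted as measured when at least 3 arrays detected one of its probes, at a detection p under 0.05. Ifi44 was not analysed here.

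Podocytes, the epithelial cells around the capillaries of the kidney glomerulus, were cultured from mouse and profiled on Illumina expression arrays after 48 h. The 4 groups of 3 arrays were control cells given neither agent, cells given DZNep, cells in high glucose, and cells in high glucose given DZNep. The labels call the source a cell line, and its name, its genotype, the glucose concentrations and the DZNep dose are not given in the sources used here. The series title calls DZNep an inhibitor of EZH2, a histone methyltransferase, and the compound is known to block the enzyme that hydrolyses S-adenosylhomocysteine. Nothing in the labels says that replicates came from separate cultures, so p-values reflect the spread between these samples alone, and precision is limited by the number of arrays.

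Interferons are secreted proteins that cells release after sensing viral nucleic acid. Type I interferon signals through the kinases JAK1 and TYK2 to a complex that holds STAT2 and IRF9 and binds the interferon-stimulated response element, while the response to type II interferon uses the gamma-activated sequence. The genes switched on by these factors block viral entry, translation and replication, and they also raise the immunoproteasome, the TAP peptide transporter and the class I molecules that show peptides to T cells. Podocytes are known to express class I molecules, and interferon has been linked to podocyte injury.

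The promoter windows of 6 of the genes are printed here. Ifit3, Isg15 and Igtp were higher with DZNep at both glucose levels and had the largest mean changes. Ddx58, Eif2ak2 and Ifitm2 were lower at both, and these windows were chosen by their motif matches. Falls at both levels were no more than near the share of all genes (7.69% of the measured genes, against 6.57%). Some calls of Ddx58 and Eif2ak2 ended when arrays were left out, as given below. Each window runs from 250 bases before to 50 bases after an annotated transcript start of the gene, in the direction of transcription, from RefSeq on GRCm38.p6. Capitals mark matches, on either strand, to GAAA, any bases NN and a further GAAA (10 bases, the core of the interferon-stimulated response element), or to TTCNNNGAA, the gamma-activated sequence. The windows are chr19:34583279-34583578 on the plus strand (Ifit3), chr4:156200769-156201068 on the minus strand (Isg15), chr11:58199306-58199605 on the plus strand (Igtp), chr4:40239776-40240075 on the minus strand (Ddx58), chr17:78882523-78882822 on the minus strand (Eif2ak2) and chr7:140955912-140956211 on the minus strand (Ifitm2).
Ifit3: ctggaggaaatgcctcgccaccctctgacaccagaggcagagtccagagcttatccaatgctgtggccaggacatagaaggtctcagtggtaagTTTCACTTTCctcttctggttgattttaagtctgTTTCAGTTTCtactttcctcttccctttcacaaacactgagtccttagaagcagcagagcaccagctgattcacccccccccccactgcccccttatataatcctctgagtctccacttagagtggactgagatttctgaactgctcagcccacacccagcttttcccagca
Isg15: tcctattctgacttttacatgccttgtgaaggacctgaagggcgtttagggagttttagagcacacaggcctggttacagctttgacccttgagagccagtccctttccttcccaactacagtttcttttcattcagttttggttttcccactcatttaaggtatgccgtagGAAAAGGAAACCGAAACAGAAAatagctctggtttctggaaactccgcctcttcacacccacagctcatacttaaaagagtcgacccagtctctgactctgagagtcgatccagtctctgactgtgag
Igtp: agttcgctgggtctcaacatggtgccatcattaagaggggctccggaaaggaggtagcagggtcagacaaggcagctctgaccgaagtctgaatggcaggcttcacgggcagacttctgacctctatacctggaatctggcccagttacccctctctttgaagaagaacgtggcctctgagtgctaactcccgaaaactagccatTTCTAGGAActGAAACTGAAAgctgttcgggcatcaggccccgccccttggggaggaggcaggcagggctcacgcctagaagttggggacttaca
Ddx58: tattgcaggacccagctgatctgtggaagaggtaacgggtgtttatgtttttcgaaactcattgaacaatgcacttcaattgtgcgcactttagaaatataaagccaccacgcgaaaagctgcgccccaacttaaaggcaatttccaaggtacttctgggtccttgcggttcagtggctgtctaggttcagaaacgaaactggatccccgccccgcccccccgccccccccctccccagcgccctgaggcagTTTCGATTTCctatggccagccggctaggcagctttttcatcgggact
Eif2ak2: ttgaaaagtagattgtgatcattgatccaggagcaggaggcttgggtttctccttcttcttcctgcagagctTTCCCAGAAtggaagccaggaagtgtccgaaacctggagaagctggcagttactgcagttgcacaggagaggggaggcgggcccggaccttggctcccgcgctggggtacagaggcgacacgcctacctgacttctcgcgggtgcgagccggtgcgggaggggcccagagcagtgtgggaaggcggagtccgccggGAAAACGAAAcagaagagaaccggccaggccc
Ifitm2: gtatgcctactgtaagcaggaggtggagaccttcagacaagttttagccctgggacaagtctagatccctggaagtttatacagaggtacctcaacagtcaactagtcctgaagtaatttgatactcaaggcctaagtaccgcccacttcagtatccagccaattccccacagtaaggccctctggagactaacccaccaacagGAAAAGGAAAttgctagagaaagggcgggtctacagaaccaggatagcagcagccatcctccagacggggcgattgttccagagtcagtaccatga

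Ifit3 held 2 response element cores, with first bases at -156 and -122 from the start, and Isg15 held 3 that overlap one another, at -78, -72 and -66. Igtp held a core at -34 and a gamma-activated sequence at -45 that does not overlap it. The genes that were lower held the same core: Ddx58 at 2 bases after the start, Eif2ak2 at 18 bases after it and Ifitm2 at -46. Eif2ak2 also held a gamma-activated sequence at -178.

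Windows were at hand for 37 of the 46 genes, and 17 of these 37 genes (45.9%) held the response element core in at least 1 window, against 3.99% of 27025 genes with a window. The gamma-activated sequence was found in 10 of the 37 genes (27%), against 9.55% of all genes. Among measured genes with a window, the core was in 7 of 10 genes that rose with DZNep at both glucose levels (Irf7, which held none, among the 10), in 3 of 3 that fell at both and in 2 of 7 that passed at neither. Over all measured genes with a window the core was in 4.88% of those that rose at both levels, 4.35% of those that fell at both and 3.33% of those that passed at neither. The matches of Bst2, Irgm1 and Gbp3 to the core overlap one another as those of Isg15 do, and the gamma-activated sequences of Bst2 and Ifitm3 overlap their cores. A match is a description of these letters and not a shown binding site.

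**Figure D1:**
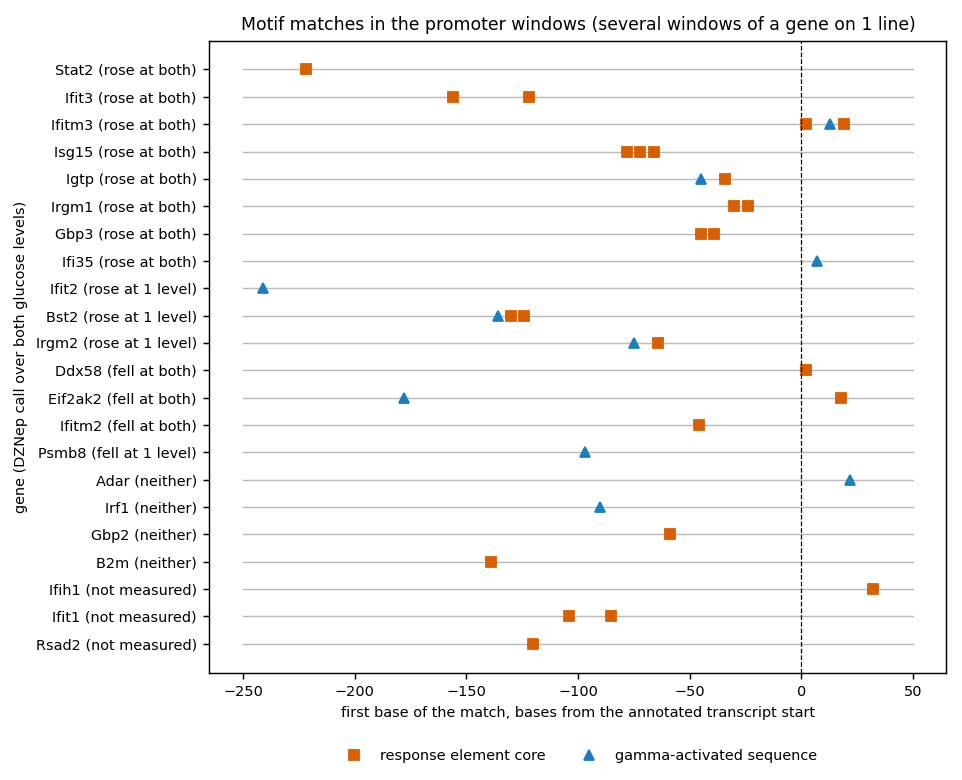
Position of each motif match in the promoter windows of the genes that held at least 1 match; the x axis gives the first base of the match in bases from the annotated transcript start (dashed line), squares are response element cores and triangles are gamma-activated sequences. Genes that rose and genes that fell with DZNep both held cores, and the 3 cores of Isg15 lie side by side at -78, -72 and -66.

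Each array detected 38.4% to 41.3% of its probes, with a median raw signal of 133 to 151. Arrays with and without DZNep separated on the first principal component (46.9% of the variance), and the second set control replicate 3 apart from the rest, so results against control are also given without that array. Of 16 podocyte markers, 8 were measured, among them Nphs1 (nephrin), Synpo (synaptopodin) and Podxl (podocalyxin), each detected on 12 arrays, whereas Ptpro, Foxc2, Tcf21 and Podn were detected on 0. Levels below are log2 of the background-corrected and quantile-normalized intensity plus 16. Changes are differences of group means on that scale, with p-values from a limma fit over the 12 arrays adjusted by the Benjamini-Hochberg method over all 10258 genes, and a gene passed at an adjusted p under 0.05. In bulk RNA of this kind, fewer cells of a type and less RNA per cell cannot be told apart.

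DZNep was followed by higher levels of many of the genes at both glucose levels. Against control at normal glucose, meaning cells without added high glucose, 22 of the 39 rose, 5 fell and 12 did not pass, with a median change of 0.30 against 0.05 over all genes. Over all 10258 genes, 33.9% passed in that comparison, 20.3% higher and 13.6% lower. Added in high glucose, DZNep was followed by 17 genes that rose, 3 that fell and 19 that did not pass, with a median of 0.23 against 0.01 over all genes, where 24.2% passed, 12.4% higher and 11.9% lower. Without control replicate 3, 16 rose and 3 fell at normal glucose (median 0.26), with 15.2% and 10.6% of all genes. Irf7 and Parp9 were measured only with the help of the arrays on which they were higher, having been detected on fewer than 3 arrays without DZNep. Without such genes, 21 of 37 rose and 5 fell at normal glucose, against 21% and 13.9% of all genes, and 16 of 37 rose and 3 fell in high glucose, against 12.8% and 12.1%.

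The same shift was seen on each array with DZNep. Relative to the control mean, the median of the 39 genes was 0.22, 0.34 and 0.29 on the DZNep arrays and 0.25, 0.23 and 0.25 on the arrays with both agents. On the high glucose arrays it was 0.02, 0.02 and 0.03. The median of all genes was at most 0.06 on any array. The shares of rises depended on the scaling: with arrays centred on their medians in place of quantile normalization, 10 of the 39 rose and 5 fell at normal glucose, where the split over all genes turned from 2082 higher and 1391 lower to 969 higher and 1272 lower. The rises that ended under that scaling were Gbp3, Ifi27, Ifitm1, Irf9, Irgm1, Irgm2, Mx2, Oasl2, Stat2, Tap1, Tap2 and Trim25, and each kept a positive change. In high glucose that scaling left 9 rises and 1 fall among the 39, against 7.65% and 6.78% of all genes. It ended the calls of Ddx58, Eif2ak2, H2-D1, Ifi27, Ifitm1, Ifitm3, Irgm1, Nlrc5, Samd9l and Stat2 there, which kept their directions. When the fit held only the groups compared, the calls of Trim25, Irf9, Mx2, Ifitm1, Irgm1, Irgm2, Ifi27, Psmb8, Tap1, Tap2 and Tapbp ended at normal glucose and those of Ifitm1 and H2-D1 in high glucose. With no filter on dim probes those of Trim25, Irgm1, Ifi27 and Psmb8 ended at normal glucose and those of Eif2ak2, Ifitm1, Ifi27 and H2-D1 in high glucose.

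**Figure D2:**
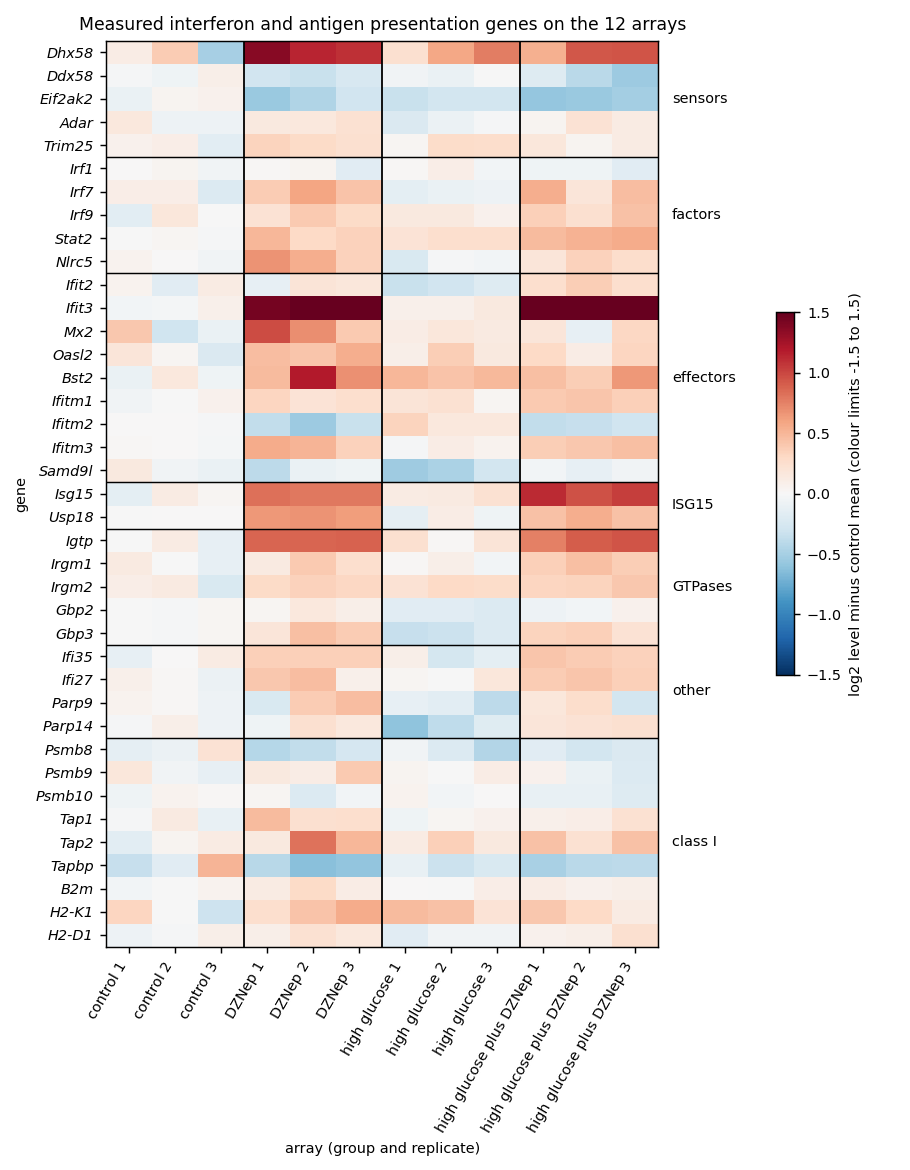
Heat map of the 39 measured genes (rows, grouped by role) on the 12 arrays (columns); colour gives the log2 level minus the control mean, from -1.5 (blue) to 1.5 (red). Ifit3 is dark red on all 6 arrays with DZNep, Isg15 and Igtp are red on all 6, and Eif2ak2 and Ifitm2 are blue on all 6.

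Of the sensors and effectors that act on viral nucleic acid, 5 of 6 were measured. At normal glucose 2 rose and 2 fell (40% each, against 20.3% and 13.6% of all genes). Without control replicate 3, 1 rose and 1 fell there. In high glucose 0 rose and 2 fell (0% and 40%, against 12.4% and 11.9% of all genes). Dhx58 (LGP2) and Trim25, the ubiquitin ligase that acts on RIG-I, rose at normal glucose, while Ddx58, which encodes the RNA sensor RIG-I, and Eif2ak2, which encodes the kinase PKR that halts translation, fell at both glucose levels. Adar, which edits double-stranded RNA, did not pass at either level (0.18, adjusted p = 0.129, and 0.24, adjusted p = 0.0606). Ifih1 (MDA5) was detected on 0 arrays.

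Dhx58 read 5.95, 6.22 and 5.33 on the control arrays, 7.20, 6.97 and 6.93 with DZNep, 6.07, 6.41 and 6.60 in high glucose, and 6.37, 6.76 and 6.78 with both. The DZNep arrays lay above all control arrays, while the high glucose arrays with and without DZNep overlapped. The rise at normal glucose was 1.20 (SE 0.210, n = 3 per group, adjusted p = 0.00152), and 0.95 without control replicate 3, on which Dhx58 was not detected. In high glucose the change was 0.28 (adjusted p = 0.375).

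Eif2ak2 read 10.78, 10.92 and 10.95 in control, 10.32, 10.44 and 10.60 with DZNep, 10.56, 10.61 and 10.61 in high glucose, and 10.31, 10.32 and 10.37 with both. At both levels the groups did not overlap, with DZNep lower. It fell by 0.43 at normal glucose (SE 0.078, adjusted p = 0.00187) and by 0.26 in high glucose (adjusted p = 0.033). The second call ended without any 1 of the 3 high glucose arrays (-0.28, -0.25 and -0.25) or the 3 arrays with both agents (-0.25, -0.25 and -0.28).

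Ddx58 read 6.95, 6.90 and 7.05 in control, 6.68, 6.63 and 6.72 with DZNep, 6.92, 6.87 and 6.96 in high glucose, and 6.77, 6.56 and 6.42 with both. All 6 arrays with DZNep were below all 6 without it. It fell by 0.29 (SE 0.087, adjusted p = 0.0253) and by 0.33 (adjusted p = 0.0188). The first call ended without control replicate 3 (-0.25), DZNep replicate 1 (-0.29) or DZNep replicate 2 (-0.27), and the second without replicate 2 (-0.32) or 3 (-0.25) of both agents or high glucose replicate 3 (-0.31). Both calls also ended on raw intensities that were quantile normalized without background correction (-0.15 and -0.16). Trim25 rose by 0.29 at normal glucose (adjusted p = 0.0303) and was at -0.08 in high glucose (adjusted p = 0.567). Its call ended without control replicate 3 (0.21), DZNep replicate 1 (0.27) or DZNep replicate 2 (0.29).

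Of the 5 measured transcription factors, 4 rose at normal glucose and 3 in high glucose, and 0 fell (3 of 4 and 2 of 4 rose without Irf7). Without control replicate 3, 3 of the 5 rose at normal glucose, against 15.2% of all genes. Over all genes 20.3% rose and 13.6% fell at normal glucose, and 12.4% and 11.9% in high glucose. Stat2, a subunit of the interferon-activated complex, read 7.45, 7.49 and 7.44 in control, 7.96, 7.76 and 7.80 with DZNep, 7.66, 7.71 and 7.72 in high glucose, and 7.94, 7.98 and 8.02 with both. The arrays of each group were close together and the groups with DZNep lay above those without it at the same glucose level. The rise was 0.38 (SE 0.066, adjusted p = 0.00146) at normal glucose and 0.28 (adjusted p = 0.00984) in high glucose.

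Nlrc5, the transactivator of class I genes, read 8.98, 8.93 and 8.87 in control, 9.60, 9.47 and 9.27 with DZNep, 8.70, 8.91 and 8.88 in high glucose, and 9.11, 9.28 and 9.19 with both. All 6 arrays with DZNep were above all 6 without it. The rises were 0.52 (SE 0.093, adjusted p = 0.0017) and 0.36 (adjusted p = 0.017), the second of which ended without high glucose replicate 1 (0.29) or replicate 2 of both agents (0.32).

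Irf7, a main regulator of type I interferon genes, was detected on 2 of 3 DZNep arrays, on 2 of 3 arrays with both agents and on 0 arrays of the other groups. Its mean with DZNep at normal glucose was at least 1.03-fold higher than in control, from the brighter group's mean against the lowest signal among detected probes or the probe's own signal, whichever was higher. In high glucose no fold is given, because the mean with both agents (5.39) was itself below that floor. Irf7 was tested only because of the arrays on which it was higher, so no p-value is given for it and its calls are not read as support. Irf9, the DNA-binding part of the complex with STAT2, rose by 0.30 at normal glucose (adjusted p = 0.0242). Its call ended without control replicate 1 (0.22) or 3 (0.30) or DZNep replicate 2 (0.25) or 3 (0.31). In high glucose Irf9 was at 0.23 (adjusted p = 0.088), with no overlap between arrays. Irf1, an early factor of the interferon gamma response, was at -0.03 and -0.12 and did not pass (adjusted p = 0.774 and 0.257).

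Of the 9 measured antiviral effectors, 6 rose and 1 fell at normal glucose (66.7% and 11.1%, against 20.3% and 13.6% of all genes). Without control replicate 3, 5 rose and 1 fell there, against 15.2% and 10.6% of all genes. In high glucose 5 rose and 1 fell (55.6% and 11.1%, against 12.4% and 11.9% of all genes). Ifit3, which binds and stabilizes IFIT1 on viral RNA in human cells, read 9.75, 9.76 and 9.87 in control, 11.23, 11.73 and 11.31 with DZNep, 9.87, 9.88 and 9.94 in high glucose, and 11.87, 11.84 and 11.91 with both. The 6 arrays with DZNep were all at least 11.23 and the 6 without it at most 9.94. It rose by 1.63 (SE 0.109, adjusted p = 3.69e-06), a fold of 3.09, and by 1.98 (SE 0.109, adjusted p = 1.26e-06), a fold of 3.93.

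Ifit2, an antiviral relative of Ifit3, passed in high glucose and not at normal glucose. It read 11.00, 10.78 and 11.08 in control, 10.83, 11.15 and 11.13 with DZNep, 10.62, 10.67 and 10.76 in high glucose, and 11.21, 11.32 and 11.20 with both. The control and DZNep arrays overlapped, and the high glucose arrays were the 3 lowest of all 12. The change was 0.08 at normal glucose (adjusted p = 0.587) and 0.56 in high glucose (SE 0.101, adjusted p = 0.00249). Ifit1 was detected on 0 arrays.

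The IFITM proteins sit in membranes and block viral entry, and their 3 measured genes did not move together. Ifitm3 read 13.51, 13.50 and 13.46 in control, 14.04, 14.00 and 13.83 with DZNep, 13.47, 13.61 and 13.54 in high glucose, and 13.85, 13.89 and 13.94 with both, so that all arrays with DZNep were above all others. It rose by 0.47 (SE 0.070, adjusted p = 0.000641) and 0.35 (adjusted p = 0.0042). Ifitm2 read 12.81, 12.81 and 12.79 in control, 12.44, 12.26 and 12.47 with DZNep, 13.14, 12.96 and 12.96 in high glucose, and 12.43, 12.46 and 12.50 with both, with all arrays with DZNep below all others. It fell by 0.41 (SE 0.074, adjusted p = 0.00177) and by 0.55 (adjusted p = 0.000422).

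Ifitm1 rose by 0.26 (adjusted p = 0.0161) and 0.24 (adjusted p = 0.0306), and its arrays did not overlap at either level. Its call at normal glucose ended without DZNep replicate 1 (0.23), and that in high glucose ended without replicate 1 (0.23), 2 (0.22) or 3 (0.25) of both agents or high glucose replicate 3 (0.18).

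Bst2 (tetherin), which holds budding virus at the cell surface, read 9.04, 9.30 and 9.08 in control, 9.61, 10.33 and 9.83 with DZNep, 9.64, 9.57 and 9.62 in high glucose, and 9.59, 9.50 and 9.78 with both. Control was the lowest group, and the high glucose arrays overlapped those with both agents. It rose by 0.78 at normal glucose (SE 0.153, adjusted p = 0.00291), and the change in high glucose was 0.01 (adjusted p = 0.96). Oasl2, of the oligoadenylate synthetase family, rose by 0.48 (adjusted p = 0.00675) at normal glucose and was at 0.04 in high glucose (adjusted p = 0.811). As a mean over its detected probes Oasl2 was at 0.33 at normal glucose and did not pass (adjusted p = 0.111).

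Mx2, an antiviral dynamin-like GTPase, was dim, detected on 1 control array, 3 DZNep arrays, 3 high glucose arrays and 2 with both. It read 5.90, 5.20 and 5.39 in control and 6.47, 6.19 and 5.89 with DZNep, so that control replicate 1 and DZNep replicate 3 overlapped. It rose by 0.69 (adjusted p = 0.0147), a call that ended without control replicate 2 (0.54) or 3 (0.64) or DZNep replicate 1 (0.54). In high glucose the change was -0.02 (adjusted p = 0.958). Samd9l, which restrains viral translation, was at -0.19 at normal glucose (adjusted p = 0.191). In high glucose it rose by 0.36 (adjusted p = 0.0289), a call that ended without any 1 of the 3 arrays with both agents (0.34, 0.38 and 0.34) or high glucose replicate 1 (0.30) or 2 (0.33). Mx1 and Xaf1 were detected on 0 arrays, Rsad2 (viperin) on 1 and Cmpk2 on 2.

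Both genes of the ISG15 system rose at both glucose levels, as did 9.19% of all genes. Isg15, a ubiquitin-like protein that is attached to others during interferon responses, read 8.31, 8.59 and 8.49 in control, 9.29, 9.26 and 9.25 with DZNep, 8.59, 8.60 and 8.69 in high glucose, and 9.59, 9.42 and 9.50 with both. All arrays with DZNep were above all others, by 0.80 (SE 0.079, adjusted p = 4.87e-05) and 0.88 (adjusted p = 3.63e-05) in the group means. Usp18, a protease which removes ISG15 and damps interferon receptor signalling, read 9.09 on each control array, 9.74, 9.76 and 9.72 with DZNep, 8.96, 9.20 and 9.02 in high glucose, and 9.53, 9.63 and 9.53 with both. It rose by 0.65 (SE 0.071, adjusted p = 8.99e-05) and 0.51 (adjusted p = 0.000563), without overlap.

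The immunity-related GTPases (IRG family) and guanylate-binding proteins (GBP family) act on the vacuoles of intracellular pathogens. Of their 5 genes, 4 rose at normal glucose and 3 in high glucose (80% and 60%, against 20.3% and 12.4% of all genes). Without control replicate 3, 3 rose at normal glucose, against 15.2% of all genes. Igtp read 9.50, 9.64 and 9.40 in control, 10.39, 10.39 and 10.40 with DZNep, 9.75, 9.53 and 9.70 in high glucose, and 10.27, 10.43 and 10.46 with both, with all arrays with DZNep above all others. It rose by 0.88 (SE 0.085, adjusted p = 4.31e-05) and by 0.72 (adjusted p = 0.000184). Gbp3 read 9.42, 9.41 and 9.45 in control, 9.61, 9.88 and 9.81 with DZNep, 9.08, 9.10 and 9.22 in high glucose, and 9.76, 9.79 and 9.64 with both. The high glucose arrays were the lowest, and those with DZNep were the highest 6. Gbp3 rose by 0.34 (adjusted p = 0.00794) and 0.60 (adjusted p = 0.000421).

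Irgm1, which regulates the other IRG proteins, rose by 0.26 at normal glucose (adjusted p = 0.039), where control replicate 1 and DZNep replicate 1 overlapped, and by 0.38 in high glucose (adjusted p = 0.00931). The first call ended without control replicate 2 (0.25) or 3 (0.19), DZNep replicate 2 (0.19) or 3 (0.26), or any 1 of the 3 arrays with both agents (0.26 each). Irgm2 rose by 0.32 at normal glucose (adjusted p = 0.019), a call that ended without DZNep replicate 2 (0.30) and was 0.20 without control replicate 3. In high glucose Irgm2 was at 0.09 (adjusted p = 0.506). Gbp2 did not pass at either level (0.09 and 0.17, adjusted p = 0.278 and 0.0768).

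Among the other interferon-inducible genes, Ifi35 rose by 0.36 (adjusted p = 0.0121) and 0.48 (adjusted p = 0.00328). Ifi35 read 9.77, 9.89 and 10.01 in control, 10.25, 10.25 and 10.24 with DZNep, 9.98, 9.63 and 9.75 in high glucose, and 10.30, 10.27 and 10.24 with both, again with no overlap. Parp14, an ADP-ribosyltransferase, was at 0.11 at normal glucose (adjusted p = 0.457) and rose by 0.60 in high glucose (SE 0.109, adjusted p = 0.00255). It read 9.15, 9.25 and 9.09 in control, 9.10, 9.41 and 9.32 with DZNep, 8.55, 8.78 and 8.98 in high glucose, and 9.34, 9.38 and 9.41 with both, with the high glucose arrays the lowest 3.

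Ifi27 rose by 0.31 (adjusted p = 0.0303) and 0.32 (adjusted p = 0.0371). Its call at normal glucose ended without control replicate 2 (0.32) or 3 (0.27) or DZNep replicate 1 (0.27) or 2 (0.24), and that in high glucose without any 1 of the 3 arrays with both agents (0.32, 0.30 and 0.33) or high glucose replicate 1 (0.30) or 2 (0.28). Parp9 was detected on 6 arrays and did not pass.

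**Figure D3:**
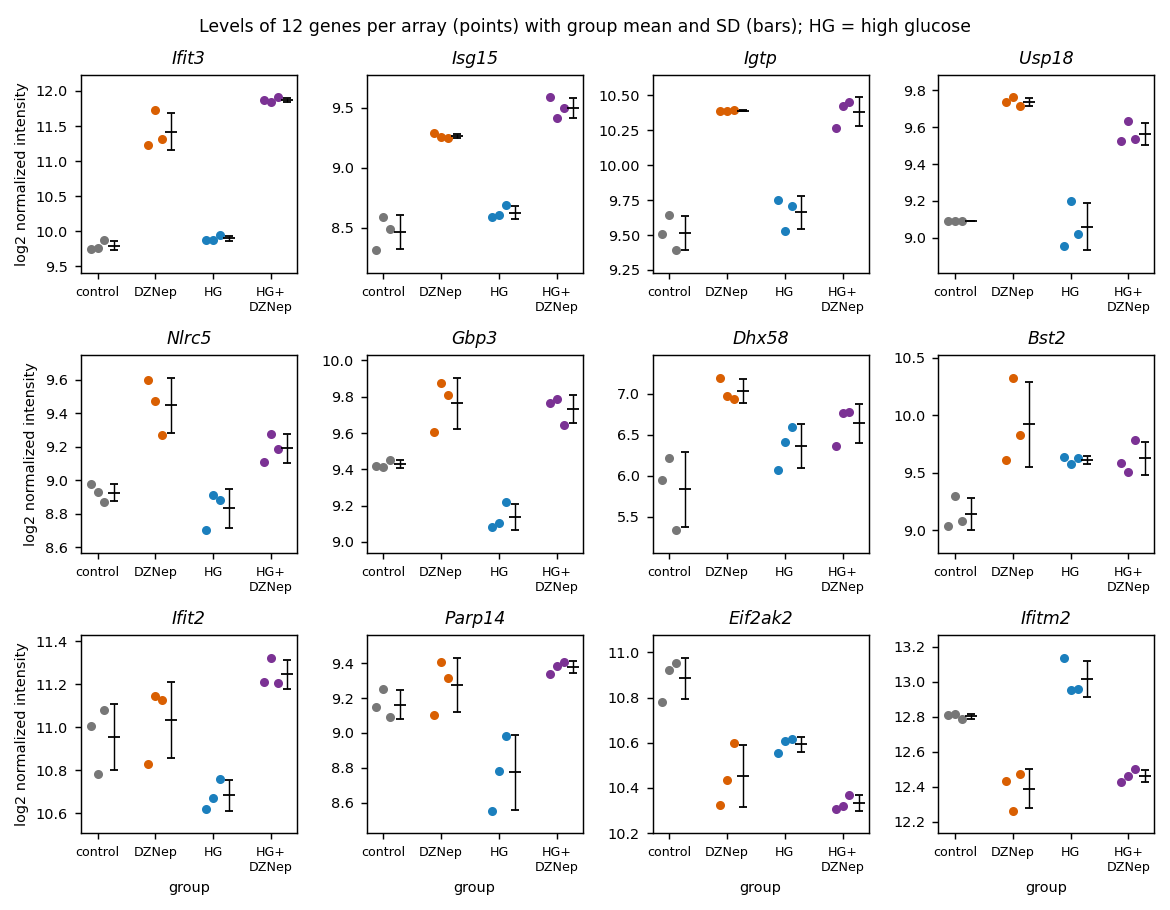
Levels of 12 genes on every array (points, log2 normalized intensity) by group, with the group mean and SD (bars, n = 3). The top row (Ifit3, Isg15, Igtp and Usp18) shows both groups with DZNep above both without it, Dhx58 and Bst2 are separated at normal glucose alone, and Eif2ak2 and Ifitm2 lie lower with DZNep.

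Class I antigen presentation genes moved in both directions. Of the 9 measured, 2 rose and 2 fell at normal glucose (22.2% each, against 20.3% and 13.6% of all genes), and 1 rose in high glucose (11.1%, against 12.4%), shares near those of all genes. Without control replicate 3, 1 rose and 1 fell at normal glucose. Tap1 and Tap2, the subunits of the peptide transporter, rose by 0.32 (adjusted p = 0.0158) and 0.49 (adjusted p = 0.0257) at normal glucose, without overlap between arrays. In high glucose they were at 0.12 and 0.16 (adjusted p = 0.349 and 0.47). Tap1 read 8.84, 8.99 and 8.74 in control and 9.33, 9.10 and 9.10 with DZNep, and Tap2 read 9.58, 9.78 and 9.87 in control and 9.90, 10.56 and 10.24 with DZNep. The Tap1 call ended without control replicate 3 (0.26) or DZNep replicate 1 (0.25), and the Tap2 call without control replicate 1 (0.41) or DZNep replicate 2 (0.32) or 3 (0.48).

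Tapbp (tapasin), which bridges TAP and class I molecules, read 7.26, 7.44 and 8.12 in control and 7.19, 6.98 and 7.01 with DZNep, so that control replicate 3 stood well above the rest. It fell by 0.55 (adjusted p = 0.0303), and by 0.29 without control replicate 3 (adjusted p = 0.0442). The call ended without DZNep replicate 2 (-0.51) or 3 (-0.52). In high glucose Tapbp was at -0.21 (adjusted p = 0.422).

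The immunoproteasome subunits, which replace constitutive ones to change the peptides made, did not rise. Psmb8 read 11.65, 11.70 and 12.01 in control and 11.36, 11.42 and 11.54 with DZNep, with no overlap. It fell by 0.35 at normal glucose (adjusted p = 0.0339) and was at 0.01 in high glucose (adjusted p = 0.959). The call ended without control replicate 3 (-0.24), DZNep replicate 1 (-0.31) or DZNep replicate 2 (-0.34). It also ended with the replicate number as a block (adjusted p = 0.0556), with only the groups compared (adjusted p = 0.0671), with no filter on dim probes (adjusted p = 0.0561) and as a mean over both Psmb8 probes (-0.11, adjusted p = 0.369). Psmb9 was at 0.21 and -0.13 (adjusted p = 0.135 and 0.41), and Psmb10 at -0.07 and -0.14 (adjusted p = 0.468 and 0.181). The constitutive subunits that they replace, Psmb5, Psmb6 and Psmb7, all failed to pass at both levels (0 at an unadjusted p under 0.05 in the limma fit), with changes from -0.04 (Psmb7, adjusted p = 0.662) to 0.01 (Psmb5, adjusted p = 0.961) at normal glucose.

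The class I heavy chain genes H2-K1 and H2-D1 and the light chain gene B2m did not pass at normal glucose by the probe that stood for each gene. H2-K1 was at 0.41 (adjusted p = 0.0524), H2-D1 at 0.16 (adjusted p = 0.119) and B2m at 0.17 (adjusted p = 0.0627). For H2-D1 all DZNep arrays (14.2822 to 14.4245) were above all control arrays (14.1184 to 14.2773), by a narrow margin. The same held for B2m (14.51 to 14.68 with DZNep and 14.36 to 14.44 in control), while the H2-K1 arrays overlapped. In high glucose H2-D1 rose by 0.23 (adjusted p = 0.0486), a call that held under 4 of 21 alternatives. It ended without 11 of the 12 arrays left out in turn, with values of 0.23 without any 1 of control replicates 1 and 2 and the 3 DZNep arrays, of 0.26, 0.25 and 0.17 without replicates 1, 2 and 3 of both agents, and of 0.19, 0.24 and 0.24 without high glucose replicates 1, 2 and 3. The classical class I genes of the mouse are near-identical copies of one another, so probes of H2-K1 and H2-D1 may also take up RNA of other class I genes. H2-K1 was at -0.10 and B2m at 0.06 in high glucose (adjusted p = 0.677 and 0.58).

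The changes at the 2 glucose levels come from separate arrays, but their calls share 1 estimate of the spread over all 12 arrays and are not independent. By these calls 13 of 39 genes (33.3%) rose at both levels, against 9.19% of all genes. They were Gbp3, Ifi27, Ifi35, Ifit3, Ifitm1, Ifitm3, Igtp, Irf7, Irgm1, Isg15, Nlrc5, Stat2 and Usp18. Without Irf7 and Parp9 they were 12 of 37 (32.4%), against 9.61% of all genes with such genes left out. Ddx58, Eif2ak2 and Ifitm2 fell at both, which is 3 of 39 (7.69%) against 6.57% of all genes. Across the 39 genes the changes at both levels had a Pearson correlation of 0.699, against 0.663 across all genes, and 33 of 39 had the same sign (84.6% against 71.8%). These correlations are across genes, which are not independent replicates. At normal glucose the DZNep arrays were all above the control arrays for 22 of the 39 genes and all below them for 5, against 26.4% and 18.2% of all genes. In high glucose the arrays with DZNep were all above for 22 and all below for 6, against 23.2% and 21.2%.

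**Figure D4:**
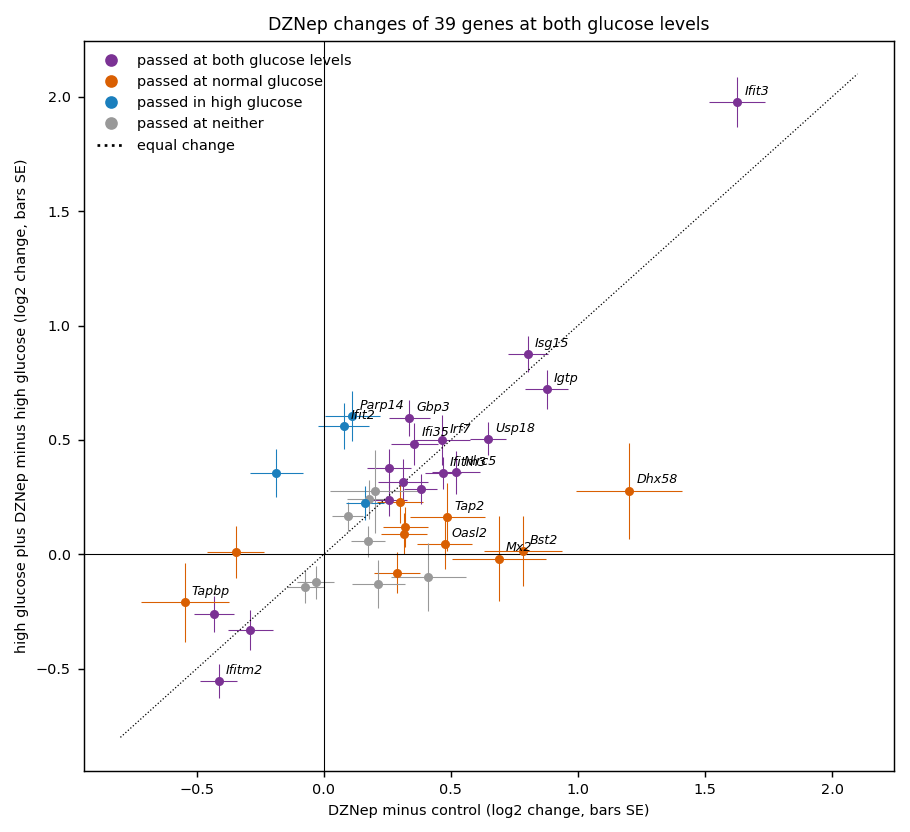
Change with DZNep in high glucose (y axis) against change with DZNep at normal glucose (x axis) for the 39 genes, both as log2 differences with SE bars; the dotted line marks equal change. Ifit3 is the farthest point at 1.63 and 1.98, Isg15, Igtp and Usp18 lie near the line, Dhx58 and Bst2 lie well below it, and Ifit2 and Parp14 lie above it.

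The test of the difference between the DZNep responses at the 2 glucose levels (the interaction in the same limma fit) was passed by 0 of the 39 genes, against 0.0487% of all genes. At an unadjusted p under 0.05 there were 13 (33.3%), against 15.8% of all genes. The lowest adjusted p was 0.136, for Samd9l (0.54 more in high glucose). Bst2 (-0.77, SE 0.217, adjusted p = 0.147) and Dhx58 (-0.92, SE 0.297, adjusted p = 0.181) had smaller changes in high glucose, and Ifit2 (0.48, SE 0.143, adjusted p = 0.159) and Parp14 (0.49, adjusted p = 0.174) larger ones. Quantile normalization without background correction took Samd9l (0.53, adjusted p = 0.0401) and Bst2 (-0.67, adjusted p = 0.0469) past the threshold. A call at 1 level and none at the other therefore did not amount to a shown difference for the other genes under any alternative, nor for these 2 in the fit used here.

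High glucose itself moved none of the 39 genes past the threshold, against 0.283% of all genes. By the limma fit 12 had an unadjusted p under 0.05, as did 18.6% of all genes, and the lowest adjusted p was 0.087, for Samd9l at -0.43. Samd9l read 12.99, 12.79 and 12.74 in control and 12.30, 12.37 and 12.56 in high glucose, and Gbp3 (-0.29, adjusted p = 0.105) and Parp14 (-0.39, adjusted p = 0.11) were also lower on every high glucose array than on every control array. Without background correction Samd9l (-0.42), Parp14 (-0.32) and Eif2ak2 (-0.27) passed as lower. Bst2 (0.47, adjusted p = 0.143) and Stat2 (0.23, adjusted p = 0.112) were higher on every high glucose array. In all, 4 of the 39 genes were higher and 7 lower on every high glucose array than on every control array, against 12.9% and 8.1% of all genes. The high glucose arrays also serve as the baseline of the DZNep comparison in high glucose, so the values of both comparisons for Samd9l, Parp14, Gbp3 and Bst2 share those 3 arrays. Under DZNep, high glucose also moved 0 of 39 genes past the threshold, against 0.0585% of all genes, with 6 at an unadjusted p under 0.05 (10.3% of all genes). Ifit3 was at 0.45 (adjusted p = 0.188) there, and it passed at 0.60 (adjusted p = 0.0158) without DZNep replicate 2.

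Where a gene had several detected probes, they did not always move alike, and the values of the other probes come from the same fit over all 16311 detected probes with 1 gene symbol. Among the 65 detected probes of the 39 genes, 31 rose and 9 fell at normal glucose, against 17.1% and 14.1% of all probes, and 21 rose and 3 fell in high glucose, against 10.1% and 8.93%. Probes detected on fewer than 3 arrays of the side on which they were lower were then left out. Of the 59 others, 30 rose and 8 fell at normal glucose, against 17.7% and 14.2% of all such probes. In high glucose 20 rose and 3 fell, against 10.4% and 9.09%. The second Ifit3 probe was at 0.30 at normal glucose (adjusted p = 0.469) and rose by 1.27 in high glucose (adjusted p = 0.0109). The second Dhx58 probe rose at both levels, by 1.01 (adjusted p = 0.000794) and 0.54 (adjusted p = 0.028). The second Irf9 probe fell by 0.45 at normal glucose (adjusted p = 0.0251), against the rise of the brighter probe, and the mean over both gave -0.07 (adjusted p = 0.573). Of 5 Irf1 probes, 2 fell at normal glucose by 0.56 and 0.50 (adjusted p = 0.0455 and 0.00659), and none passed in high glucose. A further Irf1 probe was detected on the 3 control arrays and no others, at least 1.07-fold higher there than with DZNep, and it was tested only because of those arrays.

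Some of the genes that did not pass by their brightest probe passed by others. Further probes of H2-K1 rose by 0.40 and 0.36 at normal glucose (adjusted p = 0.0199 and 0.0416), further probes of H2-D1 by 0.23 and 0.39 (adjusted p = 0.0345 and 0.0448), and further probes of Adar by 0.38 and 0.41 (adjusted p = 0.0346 and 0.00984). Without control replicate 1 the brightest probes of H2-K1 (0.57) and Psmb9 (0.30) passed at normal glucose and that of Adar at both levels (0.26 and 0.24). For H2-K1 and H2-D1 none of these passed in high glucose. The second probes of Usp18 (-0.18, adjusted p = 0.377) and Psmb8 (0.13, adjusted p = 0.357) had the opposite sign at normal glucose without passing, and the mean over both Usp18 probes was at 0.23 (adjusted p = 0.0672). The second probe of Irgm1 rose at both levels, by 0.53 and 0.70 (adjusted p = 0.0019 and 0.000489).

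**Figure D5:**
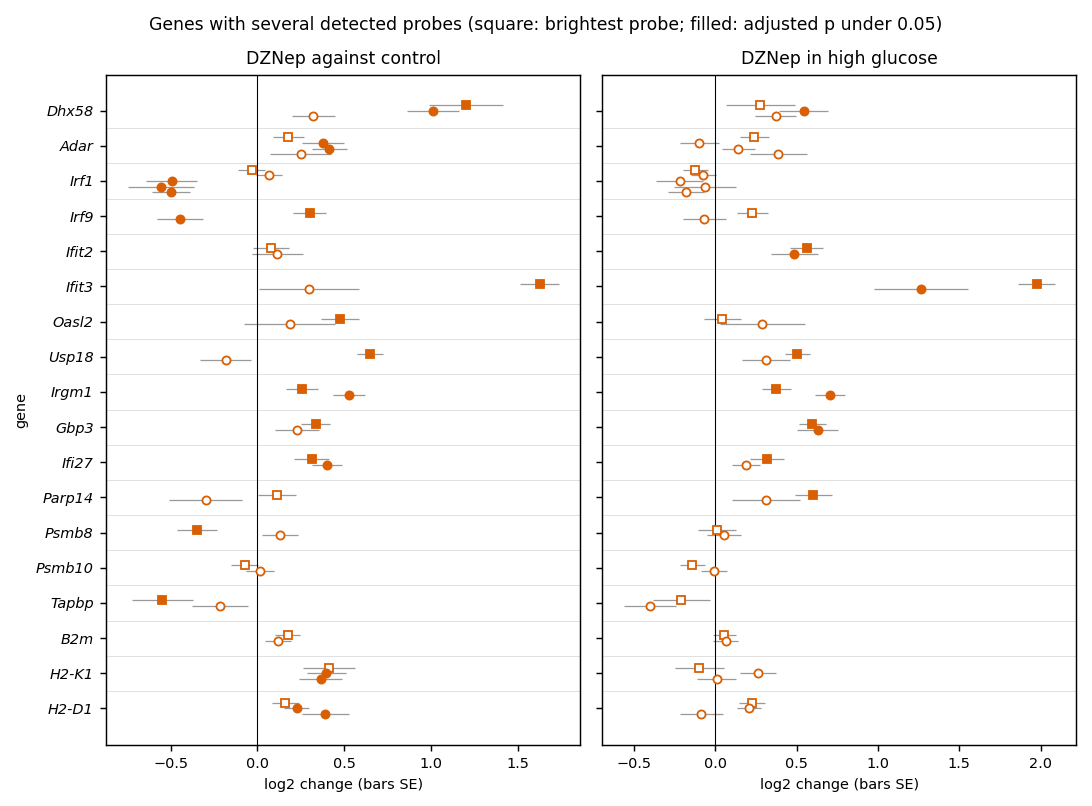
Change with DZNep of every detected probe of the 18 genes with several detected probes, at normal glucose (left) and in high glucose (right), as log2 differences with SE bars; squares are the brightest probes, circles the others, and filled marks passed at an adjusted p under 0.05. The Irf9 probes lie on opposite sides of 0 at normal glucose, and both Ifit3 probes lie to the right of 0 on both sides.

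The rest of the pathway was read from lists. Of 9 interferon ligands and receptors, 4 were measured and 0 passed with DZNep at either level. The ligand genes Ifna4, Ifnb1 and Ifng were not measured. The receptor genes Ifngr2 (0.21, adjusted p = 0.218) and Ifnar2 (0.07, adjusted p = 0.769) did not pass at normal glucose. In high glucose Ifnar2 was at 0.42 (adjusted p = 0.0864). In the limma fit 0 of the 4 at normal glucose and 1 in high glucose had an unadjusted p under 0.05, and the medians of the 4 were 0.08 and 0.18.

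Of 10 measured interferon signalling genes, 3 rose and 2 fell at normal glucose (30% and 20%, against 20.3% and 13.6% of all genes). Without control replicate 3 these counts were 2 and 2. In high glucose 2 rose and 1 fell (20% and 10%, against 12.4% and 11.9% of all genes). Irf3, which turns on interferon genes once sensors fire, rose by 0.60 (adjusted p = 0.000278) and 0.44 (adjusted p = 0.00233). Tyk2, a receptor kinase, rose by 0.42 at normal glucose (adjusted p = 0.00488), where Jak2, another kinase, fell by 0.42 (adjusted p = 0.00369). Socs3, a feedback inhibitor of cytokine receptors, fell by 0.46 (adjusted p = 0.000966) and by 0.45 (adjusted p = 0.00137). None of these calls ended when any 1 array was left out.

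Genes of nucleic acid sensing rose for 7 of 12 measured at normal glucose (6 without control replicate 3) and 4 of 12 in high glucose, and 0 fell. These rises were 58.3% and 33.3%, against 20.3% and 12.4% of all genes. Cgas, which senses DNA in the cytosol, rose by 0.59 (adjusted p = 7.44e-05) and 0.48 (adjusted p = 0.000359). Sting1, its downstream adaptor, rose by 0.63 at normal glucose (adjusted p = 0.00148) and was at 0.33 in high glucose (adjusted p = 0.051). Ikbke, a kinase that acts on IRF3 and IRF7, rose by 0.76 at normal glucose (adjusted p = 0.000935) and was at 0.29 in high glucose (adjusted p = 0.104). Trim56 rose by 0.46 (adjusted p = 0.0051) and by 0.37 (adjusted p = 0.0198), the second of which ended without replicate 1 or 2 of both agents or of high glucose (0.33 to 0.43 over all arrays left out in turn).

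Of 24 further measured interferon-stimulated genes, 11 rose and 0 fell at normal glucose (7 and 0 without control replicate 3). In high glucose 8 rose and 0 fell. The rises were 45.8% and 33.3%, against 20.3% and 12.4% of all genes. Of the 24 genes, 4 were tested only with the help of the arrays on which they were higher, such as Rtp4. Without these, 9 and 7 of 20 rose (45% and 35%, against 21% and 12.8% of all genes). The medians of the 24 genes were 0.25 and 0.19, next to 0.05 and 0.01 over all genes. Trim21, an antibody receptor in the cytosol, rose by 0.83 (adjusted p = 6.32e-05) and 0.56 (adjusted p = 0.000847), and Tgtp1, a GTPase of the IRG family, by 0.78 (adjusted p = 0.00272) and 0.67 (adjusted p = 0.00791). Rtp4 was detected on 2 control arrays, 3 DZNep arrays, 3 with both agents and 0 in high glucose. It was higher by 0.69 at normal glucose, and at least 1.18-fold higher with DZNep in high glucose. Ly6e, a surface protein, rose by 0.65 (adjusted p = 0.000561) and 0.64 (adjusted p = 0.000791). Sp100, a nuclear body protein, rose by 0.65 (adjusted p = 0.0012) and 0.84 (adjusted p = 0.000349). Trim21, Tgtp1, Ly6e and Sp100 passed at both levels with any 1 array left out, and the calls of Rtp4 are not read as support.

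Of 11 further class I presentation genes measured, 1 rose and 1 fell at normal glucose (9.09% each, against 20.3% and 13.6% of all genes). Without control replicate 3 the counts there were 1 and 0. In high glucose 0 passed (3 at an unadjusted p under 0.05 in the limma fit), and 2 rose without control replicate 3. Calr (calreticulin), a chaperone of class I folding, fell by 0.56 at normal glucose (adjusted p = 0.0245), a call that ended without control replicate 3 (-0.37) or DZNep replicate 2 (-0.46), and was at 0.47 in high glucose (adjusted p = 0.0615). H2-T23 rose by 0.28 at normal glucose (adjusted p = 0.0436), a call that ended without 8 of the 12 arrays left out in turn (0.23 to 0.33). Of 7 measured class II presentation genes, 1 rose and 0 fell at normal glucose (14.3% and 0%, against 20.3% and 13.6% of all genes). Without control replicate 3, 2 rose there (15.2% of all genes). In high glucose 0 rose and 2 fell (0% and 28.6%, against 12.4% and 11.9% of all genes). Rfxank, a subunit of the factor that binds class II promoters, rose by 0.73 at normal glucose (adjusted p = 0.00436). In high glucose H2-DMb1 and H2-DMa, which load peptide onto class II molecules, fell by 0.60 (adjusted p = 0.000605) and 0.54 (adjusted p = 0.00447). Ciita, the class II transactivator, was not measured. By the same fit 0 genes of these lists passed with high glucose alone, against 0.283% of all genes.

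Of the 8 measured podocyte markers, 2 rose and 2 fell with DZNep at normal glucose (25% each, against 20.3% and 13.6% of all genes). In high glucose 0 rose and 1 fell (12.5%, against 12.4% and 11.9% of all genes that rose and fell). Col4a3 fell by 0.98 at normal glucose (adjusted p = 0.00573), and no array left out ended its call. Cd2ap fell there by 0.39, Tjp1 rose by 0.65 and Nphs1 by 0.22, and Vegfa fell by 0.30 in high glucose. Each of these further calls ended without 3 or more of the 12 arrays left out in turn. Markers of other cell types were read on the same arrays. Of 14 leukocyte markers, 6 were measured, and with DZNep 2 rose and 1 fell at normal glucose (1 and 0 without control replicate 3). In high glucose 1 rose. The shares were 33.3% and 16.7% at normal glucose, against 20.3% and 13.6% of all genes. In high glucose the rise was 16.7%, against 12.4%. Laptm5 was detected on 3 DZNep arrays, 1 array with both agents and no other, at least 1.72-fold higher with DZNep than in control. It was tested only because of the arrays on which it was higher, and it is 1 of 3 leukocyte markers of which this holds, so that 1 of the other 3 rose and 1 fell at normal glucose. Csf1r rose by 0.47 (adjusted p = 0.0327) and 0.50 (adjusted p = 0.0329), and Cd14 fell by 0.24 at normal glucose (adjusted p = 0.0474). The summed signal of the 6 genes was 1962 to 2014 in control, 1715 to 1916 with DZNep, 2286 to 2725 in high glucose and 2244 to 2306 with both. Cd14 made up 79.9% to 92.2% of that sum. The other 5 genes summed to 210.7 to 269.1 in control, 321.3 to 345.4 with DZNep, 211.5 to 253.6 in high glucose and 255.2 to 291.9 with both. These 5 include Laptm5 and Fcer1g, each detected on 0 control arrays and 3 DZNep arrays. The higher sum with DZNep is thus partly set by the detection filter and is not read as a result. The defining leukocyte genes Ptprc (CD45), Adgre1, Itgam, Lyz2 and Tyrobp were detected on 0 arrays. The calls of Csf1r ended without control replicate 1 (0.45) or 3 (0.40) or DZNep replicate 1 (0.42) or 3 (0.40), and, in high glucose, without replicate 1 (0.46) or 3 (0.47) of both agents or high glucose replicate 1 (0.34). The call of Cd14 ended without 9 of the 12 arrays left out in turn (-0.30 to -0.19).

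Of 8 endothelial markers, 4 were measured and 2 rose at both levels, against 9.19% of all genes. They were Esam (0.98 and 0.56, adjusted p = 0.000791 and 0.0218) and Eng (0.80 and 0.64, adjusted p = 0.0108 and 0.0392). Kdr was at -0.20 at normal glucose and Tek at -0.17 in high glucose, and neither passed at either level. The 4 summed to 122.2 to 189 in control, 218.8 to 263.4 with DZNep, 138.4 to 176.3 in high glucose and 188.9 to 241.3 with both, while Pecam1, Cdh5, Emcn and Tie1 were detected on 0 arrays. In high glucose the call of Esam ended without 4 arrays (0.43 to 0.67 over all arrays left out in turn) and that of Eng without 6 (0.54 to 0.83). Of 6 measured mesangial and fibroblast markers, 2 rose at both levels, against 9.19% of all genes. They were Gata3 (1.13 and 0.91, adjusted p = 0.000174 and 0.000811) and Pdgfrb (0.69 and 0.41, adjusted p = 0.00127 and 0.0249). The other 4 did not pass, and 3 of the 6 had a negative change at each level, down to -0.29 and -0.22. Acta2 was lower on every DZNep array than on every control array. Thy1 was detected on 0 arrays and Pdgfra on at most 1. The 6 summed to 64370 to 66480 in control, 58360 to 61690 with DZNep, 60640 to 63330 in high glucose and 58380 to 61790 with both. Acta2 made up at least 98.7% of that sum, and the other 5 genes summed to 391 to 548.8 in control, 734.6 to 760.5 with DZNep, 550.4 to 588.8 in high glucose and 711.1 to 833 with both, higher on every array with DZNep than on any without it. The part of these markers in the interferon gene changes was not tested.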

How the data were processed

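Total RNA was labelled with biotin and hybridised to Illumina mouse arrays (12 arrays, 4 groups of 3), per the labels. The deposited probe signals are raw linear intensity values, each beside a detection p-value, per the file headers. GenomeStudio (no version stated) is named in the submitters' processing notes. The authors' processed table also holds intensity values, each array a linear function of the raw signal scaled to a mean of 568.254. Array medians in it were 9.97 to 11.39, its direction matched the raw signal, and what its offset was meant to remove is unknown.

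With the neqc function (limma 3.58.1, R 4.3.3), normexp background correction used the detection p-values, an offset of 16 was added, and arrays were quantile normalized and log2 transformed, so folds of dim genes are understated. The platform annotation gave 34885 probes 1 gene symbol, 18 several and 10378 none, and 34807 matched a RefSeq gene ID. Probes that at least 3 arrays detected (p under 0.05) were used, and the brightest stood for its gene, giving 10258 genes. Group means were compared with lmFit and eBayes of limma (11.32 residual degrees of freedom including the prior), with Benjamini-Hochberg adjustment within each of 5 comparisons. The design shares replicate numbers between groups, so a fit with the number as a block was run as an alternative.

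The scripts were tested on simulated data. The genes and lists were chosen with earlier results of these data known. All measured genes are named, and from each pathway list up to 4 that passed with no overlap between arrays, or up to 2 with the smallest p. Marker genes were named after their values were seen.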

Additional observations from a re-analysis of the deposited data

Results flagged for a closer look

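Some probes lay outside the comparisons because they were detected on fewer than 3 arrays, and 3 of them were detected on arrays with an added agent and on no control array. The Rsad2 probe, for the antiviral enzyme viperin, was detected on 1 array, DZNep. An Adar probe was detected on 1 array, in high glucose. An H2-D1 probe was detected on 2 arrays, 1 with DZNep and 1 with both agents. No change was computed from these probes. The groups of 3 were too small for a test of outlying samples, and the interaction of DZNep with high glucose passed for 0 of the 39 genes in the limma fit (13 at an unadjusted p under 0.05).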

How the results depend on the processing

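Over 21 alternatives (20 for Irf7 and Mx2, which the stricter filter removed), 11 of the 27 genes called at normal glucose and 10 of the 20 called in high glucose kept their call each time. Over the 12 arrays left out in turn 15 and 13 kept it. Each of these counts includes Irf7, which was tested only because of the arrays on which it was higher and whose calls are not read as support. The genes that rose ranged from 16 to 23 at normal glucose and from 12 to 17 in high glucose. Over all genes the rises ranged from 14.8% to 20.1% and from 7.86% to 13.6%. Those that fell ranged from 2 to 5 and from 1 to 3, and over all genes from 10.2% to 13.5% and from 7.79% to 13.2%. The count of falls was 3 without control replicate 3 or DZNep replicate 1, 2 without DZNep replicate 2, and 1 in high glucose without high glucose replicate 3 or replicate 2 or 3 of both agents. High glucose under DZNep gave 0 to 1 rises, Ifit3 without DZNep replicate 2. Array median centring gave 10 rises at normal glucose (9.45% of all genes rose). It gave 9 rises and 1 fall in high glucose (7.65% and 6.78% of all genes). Only the groups compared gave 13 rises and 3 falls at normal glucose (14% and 9.25% of all genes). Every detected probe as its own feature gave 9 falls there (14.1% of all probes). Quantile normalization without background correction gave 3 falls with high glucose alone (1.71% of all genes). For the interaction it gave 1 higher and 1 lower (1.09% and 0.478% of all genes). The one reversed value was that of Irf9, DZNep against control, at -0.0724 as a mean over its probes, which moved in opposite directions. The authors' values gave a split of 1548 higher and 965 lower over all genes in high glucose, against 1268 and 1219, with 17 rises and 2 falls among the 39, and ended the calls of Irgm1 at normal glucose (0.23) and of Eif2ak2 (-0.19), H2-D1 (0.14) and Ifi27 (0.29) in high glucose. With no filter on dim probes 19 of 45 rose and 4 fell at normal glucose, against 9.39% and 6.25% of all genes. In high glucose these counts were 14 and 2, against 5.24% and 5.17%. The cause of these shifts was not tested. With the replicate number as a block, 22 rose and 4 fell at normal glucose (19% and 13% of all genes). In high glucose 16 rose and 3 fell (11.5% and 11.2% of all genes), with 0 for the other comparisons. Deviations of same-numbered arrays correlated at -0.182 to 0.18, so the numbers are not taken as pairs. Genes detected on few arrays (Irf7, Mx2, Parp9) are limited by signal over background.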
